A study of Mus musculus with 82 samples.

Results

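The cadherin loci described here are 8 genes taken by name: Cdh1, Cdh2, Cdh3, Cdh4, Cdh5, Cdh6, Cdh11 and Cdh13, of 21887 protein-coding genes on the main chromosomes in the RefSeq gene table of GRCm38.p6. They were examined in mouse embryonic fibroblasts (OG2-MEFs) infected at passage 2 with retroviruses for Oct4, Sox2, Klf4 and c-Myc (OSKM), the factors that turn fibroblasts into pluripotent cells. All 4 groups received OSKM. The Flag groups received Flag in addition, read here as the control, and the D209N groups received RNase H1(D209N), a form of the RNA:DNA hybrid nuclease with a substitution in its catalytic site, at day 3 and at day 7 of reprogramming. Each group has 2 ATAC-seq samples, and 1 list of accessible intervals (peaks) was deposited for each group. The 8 ATAC-seq samples belong to a series of 82, and its R-loop, RNA-seq and CLIP-seq samples were not analysed here. The labels give no fraction of infected cells and no animal or embryo behind a sample. Whether a difference comes from fewer cells with an open site or from less access per cell cannot be told apart in bulk samples.

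Classical cadherins are transmembrane proteins that hold neighbouring cells together through calcium-dependent binding and anchor to actin through catenins. Fibroblasts carry mainly mesenchymal cadherins such as N-cadherin, and epithelial and pluripotent cells carry E-cadherin. The exchange of the one for the other accompanies the mesenchymal-to-epithelial transition early in reprogramming, and repressors of the Snail and Zeb families act on Cdh1 in fibroblasts.

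A peak was counted for a gene when it overlapped the gene, or when its centre lay within 100 kb of one of the gene's ends and that end was the nearest end of any protein-coding gene. The lists held 56 such peaks in Flag and 42 in D209N at day 3, and 58 in Flag and 55 in D209N at day 7. Peaks of different lists that shared at least 1 bp were joined into 1 region, which gave 82 regions. Of these regions 61 overlapped the gene and 21 lay outside it. The farthest region that counted, present in all 4 lists, lay 98.1 to 98.2 kb below Cdh2. The nearest peaks beyond 100 kb lay 106.2 and 106.3 kb from Cdh5, in the D209N and Flag day 3 lists, and 110.6 kb from Cdh2, in all 4 lists.

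Neither scores nor read counts accompany the peaks, so presence, position and width are the measurements. With 1 list per group no test between groups was possible, and no value has a replicate error. Whole lists held 36375 peaks in Flag and 29189 in D209N at day 3, and 42439 in Flag and 40452 in D209N at day 7, and their median width was 464 to 489 bp. The length of a list touches every count given here, and read depth is unknown. Among marker genes, 3 of 6 fibroblast genes had a peak within 1 kb of a gene end in each list (Col1a1, Col1a2 and Twist1, and not Thy1, Pdgfra or Prrx1). The count was 3 or 4 of 6 for epithelial genes, 3 or 4 of 7 for endothelial genes, 2 of 5 for macrophage and blood genes, 0 of 4 for keratinocyte genes and 0 or 1 of 5 for pluripotent genes. Over all coding genes the share was 51.7 to 61.5%, and the fibroblast count lay close to it. The part of other cell types in the counts was not tested.

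**Figure D1:**
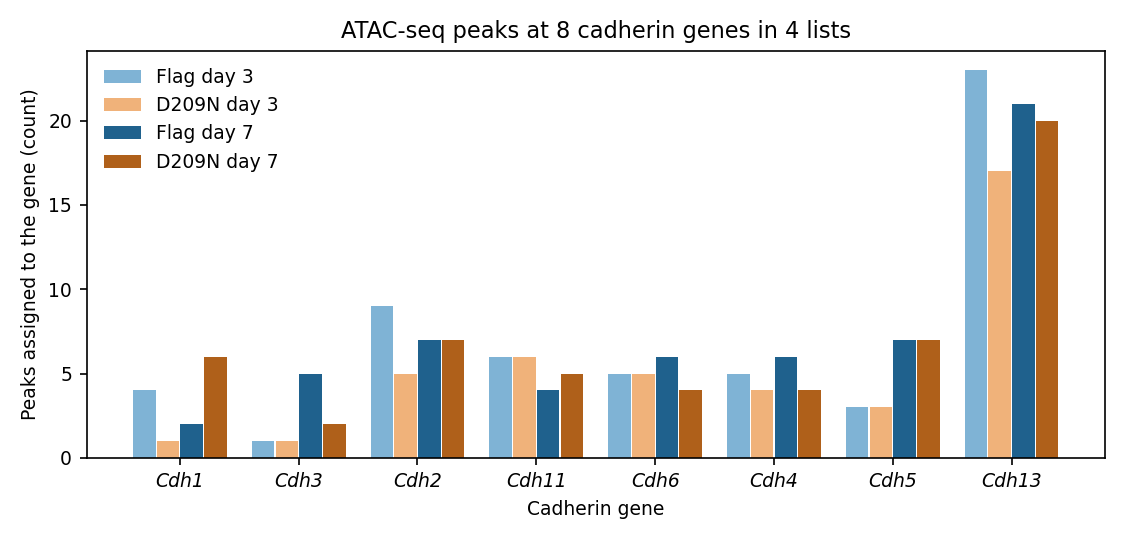
Number of peaks assigned to each cadherin gene (vertical axis, count) in the 4 lists (bar colours). Cdh13 had the most peaks in every list, between 17 and 23, and Cdh1 ranged from 1 in D209N day 3 to 6 in D209N day 7.

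Cdh1, which encodes E-cadherin, the adhesion protein of epithelial and pluripotent cells, lies on chromosome 8 from 106603350 to 106670247. It had 4 peaks in Flag and 1 in D209N at day 3, and 2 in Flag and 6 in D209N at day 7. Base pairs under these peaks numbered 1319, 392, 1181 and 2053 in the same order. The D209N lists thus held both the lowest and the highest value, and the Flag lists lay between them on both days.

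The lower end of Cdh1, known as its start, was covered in 3 lists. The peak ran from 106603296 to 106603679 in Flag day 3, from 106603272 to 106603879 in Flag day 7 and from 106603182 to 106603669 in D209N day 7, with widths of 384, 608 and 488 bp. D209N day 3 had no peak there. Over all coding genes, a peak within 1 kb of a gene end was in Flag day 3 and not in D209N day 3 at 5.03%, and the reverse held at 0.809%. Cdh1 was the only 1 of the 8 cadherins with such a difference at day 3. At day 7 none of the 8 differed between arms in this respect, against 2.02% of coding genes with the peak in Flag only and 0.973% with it in D209N only.

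Inside Cdh1, the region at 106619495 to 106620070, 16.4 kb above the lower end, was the only Cdh1 region present in all 4 lists. Its width was 356 bp in Flag and 392 bp in D209N at day 3, and 573 bp in Flag and 576 bp in D209N at day 7. Both day 7 peaks were wider than both day 3 peaks. A pair of regions followed at 106631743 to 106632050 and 106632453 to 106632945. The first was 308 bp wide in Flag day 3 and 205 bp in D209N day 7, the second 271 and 486 bp, and neither was in D209N day 3 or Flag day 7. The pattern of a region in Flag day 3 and D209N day 7 alone was held by 3 of the 82 cadherin regions (3.66%) and by 1.28% of the regions at any coding gene, and 2 of the 3 are this pair.

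Finally, 2 Cdh1 regions were in D209N day 7 alone. They spanned 106626258 to 106626323, 66 bp, and 106647387 to 106647618, 232 bp. Every one of the 4 Cdh1 regions that D209N day 7 had and Flag day 7 lacked was narrower in D209N day 7 than that list's median of 489 bp. With only peaks wider than the median of their own list, the order of the arms at day 7 turned, to 2 Cdh1 peaks in Flag and 1 in D209N. That limit was 464 bp in Flag day 7 and 489 bp in D209N day 7. D209N day 7 peaks of 488 bp, at the start, and of 486 bp just missed it. Both were wider than the Flag day 7 limit, so the turn depends on the unequal limits. With the median of each list as the limit, neither day 3 list had a Cdh1 peak. No difference between the arms was then left at day 3, and Flag turned, from 0 peaks at day 3 to 2 at day 7.

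The peak names of each list carry a serial number that ascends along each chromosome and skips values. What the skipped numbers stood for is not given in the sources used here. Between the Cdh1 region at 16.4 kb and the next listed peak, at the neighbouring gene Tango6, Flag day 7 skipped 3 numbers in the stretch where D209N day 7 listed 4 regions. D209N day 3 skipped 0 numbers in that stretch, and 2 numbers in the interval that contains the Cdh1 start. That interval reaches from 41.5 kb below the start region to 15.6 kb above it. It also holds a Cdh3 region of Flag day 7.

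Cdh3 is the gene below Cdh1 and encodes P-cadherin, found in basal epithelia and placenta. It runs from 106510852 to 106556911, and 46.4 kb separate it from Cdh1. It had 1 peak in each day 3 list, 5 in Flag day 7 and 2 in D209N day 7. The single region present throughout lay between the genes, at 106561165 to 106561723, just above the end of Cdh3. Its width was 411 bp in Flag and 451 bp in D209N at day 3, and 529 bp in Flag and 559 bp in D209N at day 7, so that here too both day 7 peaks were wider than both day 3 peaks.

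The lower end of Cdh3, its start, had no peak in either day 3 list and a peak in both day 7 lists. The region at 106510518 to 106510880 was 86 bp wide in Flag day 7 and 363 bp in D209N day 7. Flag day 7 alone had a second peak of 280 bp at 106511086 to 106511365, one of 80 bp at 106507816 to 106507895 below the gene, and one of 218 bp at 106577329 to 106577546 between the genes. In Flag, 6.23% of coding genes gained such an end peak from day 3 to day 7 and 0.704% lost one, and Cdh3 was the only cadherin among the 8 to gain one. In D209N the shares were 9.02% and 0.320%, and Cdh1 and Cdh3 were the 2 that gained one. Both day 3 lists skipped 0 serial numbers around the Cdh3 start. D209N day 7 skipped 1 between its peak at that start and its next peak. That interval holds the 280 bp peak of Flag day 7 and reaches 49.8 kb above it.

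Seen together, Cdh3 and Cdh1 had 5 peaks in Flag and 2 in D209N at day 3, and 7 in Flag and 8 in D209N at day 7. The base pairs under them numbered 1730, 843, 2374 and 2975. As a pair the loci were close between the arms at day 7, while the peaks were placed differently: Flag had 5 of its 7 at Cdh3 and D209N had 6 of its 8 at Cdh1. That contrast was lost with only peaks wider than the list median, which left 1 Cdh3 peak in each arm and 2 Cdh1 peaks in Flag against 1 in D209N. The medians were unequal, 464 bp in Flag and 489 bp in D209N at day 7. With only peaks overlapping the gene, Cdh3 again had 1 in each arm at day 7, and Cdh1 kept 2 against 6. At day 3 neither list had a peak inside Cdh3. The genes on either side are Zfp90, 83.9 kb below Cdh3, and Tango6, 12.8 kb above Cdh1. The Tango6 end carried a region at 106683026 to 106683717 that was present in all 4 lists.

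**Figure D2:**
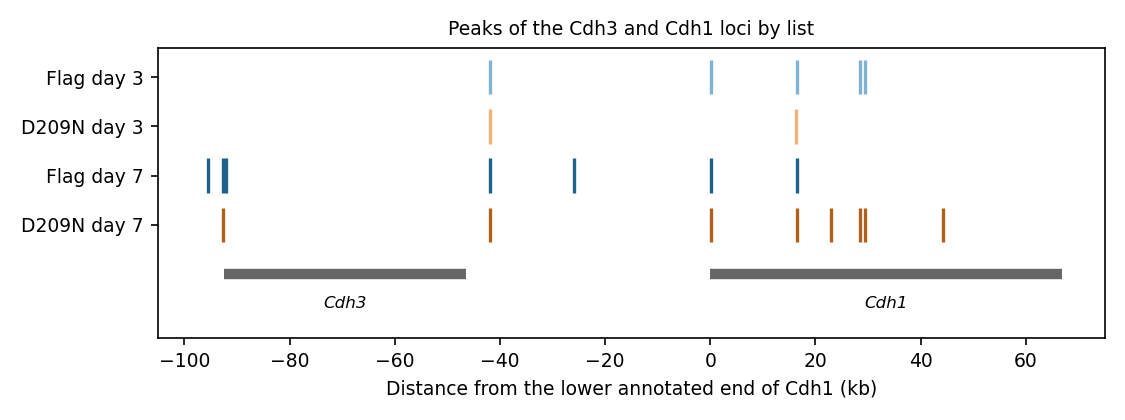
Peaks of Cdh3 and Cdh1 in each list (rows), placed by distance from the lower annotated end of Cdh1 (kb). Each tick marks a peak centre, not its width, and grey bars are the genes; D209N day 3 has 2 ticks, and only the regions about 42 kb below and 16 kb above the Cdh1 end are in all 4 rows.

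The coding genes most like Cdh1 were ranked by the sum, over the 4 lists, of absolute differences in peak count. Ephb1 (4, 1, 2 and 5 peaks in Flag day 3, D209N day 3, Flag day 7 and D209N day 7) and Pabpc6 (3, 1, 2 and 6) differed from it by 1 peak. Ralb (4, 1, 3 and 5) and Xxylt1 (3, 1, 3 and 6) differed by 2. A further 30 genes were tied at a difference of 3, of which Adgrb1 (3, 1, 4 and 6) is the first by name. With 4 lists and small counts such likeness is a description only.

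Cdh2 encodes N-cadherin, the main cadherin of fibroblasts and neural cells, on chromosome 18 from 16588877 to 16809246. It had 9 peaks in Flag and 5 in D209N at day 3, and 7 in each day 7 list. The upper end, known as the start of Cdh2, carried the widest cadherin peak in every list, in the region 16808066 to 16809761. Its width was 1627 bp in Flag and 1512 bp in D209N at day 3, and 1640 bp in Flag and 1696 bp in D209N at day 7. The start of the mesenchymal gene was thus listed at both days in both arms, at nearly equal width.

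Of 10 Cdh2 regions 5 were in all 4 lists. Beside the start these were 16490435 to 16491015 and 16561346 to 16562132, both below the gene, and 16669975 to 16670813 and 16774590 to 16774965, inside it. Their widths in Flag day 3, D209N day 3, Flag day 7 and D209N day 7 were 568, 514, 301 and 440 bp for the first. They were 787, 355, 228 and 666 bp for the second, the largest spread of any cadherin region in all lists, with a ratio of 3.45 from widest to narrowest. The lower region inside the gene measured 720, 644, 798 and 681 bp and the upper one 313, 275, 357 and 332 bp. Widths of these inner regions varied little, and those of the pair below the gene were lowest in Flag day 7.

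The regions that set the Cdh2 counts apart lay in the upper part of the gene. Flag day 3 alone had peaks at 16763048 to 16763318 (271 bp) and 16769144 to 16769532 (389 bp), and Flag day 7 alone had one at 16740716 to 16741120 (405 bp). The region 16744949 to 16745328 was in every list but D209N day 3, at 254, 369 and 312 bp in Flag day 3, Flag day 7 and D209N day 7. Another, 16806735 to 16807048, near the start, was 314 bp wide in Flag day 3 and 55 bp in D209N day 7. Every Cdh2 region of D209N day 3 was also in Flag day 3 and in both day 7 lists. D209N day 3 skipped 3 serial numbers in the stretch where Flag day 3 had 3 of the 4 regions it lacked. That stretch runs from 16670689 to 16774659. Flag day 3 itself skipped 2 numbers in the lower part of it, from 16670694 to 16744991.

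Cdh11, a cadherin of mesenchymal and bone-forming cells, lies on chromosome 8 from 102632095 to 102785493. It had 6 peaks in each day 3 list, 4 in Flag day 7 and 5 in D209N day 7. The region nearest its upper end, known as its start, spanned 102784855 to 102785380 and was 517 bp wide in Flag and 475 bp in D209N at day 3, and 501 bp in Flag and 384 bp in D209N at day 7. A second region close by, 102783929 to 102784448, was in every list but D209N day 3, with 406, 520 and 377 bp in Flag day 3, Flag day 7 and D209N day 7. D209N day 3 skipped 0 numbers there. The start of Cdh11 was therefore listed in all 4 lists, as that of Cdh2 was.

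Equal counts at day 3 did not mean equal regions at Cdh11. The arms shared 4 regions at day 3, and each had 2 of its own. Those of Flag day 3 were the 102783929 region and 102553439 to 102553798 (360 bp), and those of D209N day 3 were 102606318 to 102606642 (325 bp) and 102780829 to 102781082 (254 bp). The region 102691281 to 102691981, in the middle of the gene, was 679 bp wide in Flag day 3, 483 bp in D209N day 3 and 219 bp in D209N day 7, and was absent from Flag day 7. Regions in all 4 lists were 102626983 to 102627784, below the gene (700, 782, 532 and 580 bp in Flag day 3, D209N day 3, Flag day 7 and D209N day 7), and 102726646 to 102727099, inside it (418, 291, 454 and 408 bp). No Cdh11 region was in a day 7 list without being in a day 3 list. Base pairs under Cdh11 peaks numbered 3080 in Flag and 2610 in D209N at day 3, and 2007 in Flag and 1968 in D209N at day 7, lower at day 7 in both arms. With only peaks wider than the list median, the day 7 order of the arms turned, to 3 Cdh11 peaks in Flag and 1 in D209N.

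Cdh6, a type II cadherin of kidney and neural crest, lies on chromosome 15 from 13028699 to 13176407. It was the 1 member of 8 with an entry in the RefSeq promoter table (GRCm38.p6), which places its start at 13173675 on the minus strand, 2.73 kb below the upper gene end. The promoter sequence is shown because peaks covered it to different extents: their upper edge fell inside it in Flag day 3, Flag day 7 and D209N day 7. It covers chr15:13173626-13173925, 250 bases before to 50 after the start, and capitals mark 2 overlapping matches to the GC box GGGCGG.
Cdh6 promoter: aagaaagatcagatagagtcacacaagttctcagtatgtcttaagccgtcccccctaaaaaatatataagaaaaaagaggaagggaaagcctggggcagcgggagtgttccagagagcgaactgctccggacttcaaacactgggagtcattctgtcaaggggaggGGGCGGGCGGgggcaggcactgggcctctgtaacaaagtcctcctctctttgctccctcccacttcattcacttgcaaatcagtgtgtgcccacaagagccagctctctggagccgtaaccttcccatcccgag
The peak over this sequence ran from 13173064 to 13173722 in Flag and from 13173266 to 13173936 in D209N at day 3, and from 13173112 to 13173900 in Flag and from 13173059 to 13173897 in D209N at day 7. Of its 300 bases 97 were under the peak in Flag and 300 in D209N at day 3, and 275 in Flag and 272 in D209N at day 7. The start site was covered in all 4 lists, and the capitals in all but Flag day 3. Over 21263 promoter windows of coding genes, 52.2% touched a peak in Flag and 48.1% in D209N at day 3, and 57.2% in Flag and 56.6% in D209N at day 7.

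GGGCGG, searched on both strands, occurs in 46.2% of these promoter windows. CAGGTG, an E-box of the kind read by Snail and Zeb factors, had 0 matches in the Cdh6 window and occurs in 19.7% of windows. TGANTCA, the AP-1 motif, also had 0 and occurs in 6.99%, and the octamer ATGCAAAT, read by POU factors such as Oct4, had 0 and occurs in 1.66%. The motifs do not overlap one another by their letters in this window, since only the GC box was found.

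Cdh6 had 5 peaks in each day 3 list, 6 in Flag day 7 and 4 in D209N day 7, over 8 regions. Beside the start region (659, 671, 789 and 839 bp in Flag day 3, D209N day 3, Flag day 7 and D209N day 7), 1 other was in all 4 lists, 13217321 to 13217912 above the gene, at 421, 243, 182 and 548 bp. On the lower side 12999827 to 13000329 was in both day 3 lists (503 and 423 bp) and 13006228 to 13006552 in Flag day 3 alone (325 bp). In both day 7 lists and neither day 3 list were 13088767 to 13089063 (280 bp in Flag, 286 bp in D209N) and 13212198 to 13212524 (171 and 327 bp). Both regions below the gene were thus in day 3 lists only, 1 of them in both arms, and these 2 others were in both day 7 lists only. The remaining pair lay inside the gene: 13046973 to 13047477 in D209N day 3 (505 bp) and Flag day 7 (307 bp), and 13094770 to 13095495 in every list but D209N day 7 (588, 726 and 373 bp). With only peaks wider than the list median, 2 directions turned at Cdh6, to 1 peak in Flag and 2 in D209N at day 7 and from 3 at day 3 to 1 at day 7 in Flag.

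Cdh4 encodes R-cadherin, first known from retina and also expressed in brain and kidney, on chromosome 2 from 179442423 to 179899377. It had 5 peaks in Flag and 4 in D209N at day 3, and 6 in Flag and 4 in D209N at day 7, all of them overlapping the gene. Its lower end, known as its start, lay in the region 179442251 to 179443212, 824 bp wide in Flag and 492 bp in D209N at day 3, and 962 bp in Flag and 885 bp in D209N at day 7. The narrowest start peak of Cdh4 was that of D209N day 3, as was the case for Cdh2. That of Cdh11 was in D209N day 7 and that of Cdh6 in Flag day 3. Over all coding genes D209N day 3 was narrowest in 56.4% of shared regions. At the Cdh4 start Flag day 7 alone had a second peak, 179443409 to 179443600, of 192 bp.

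All further regions of Cdh4 lay more than 300 kb above that start. Those in all 4 lists were 179769067 to 179769689 (298, 359, 459 and 486 bp in Flag day 3, D209N day 3, Flag day 7 and D209N day 7) and 179842909 to 179843686 (685, 394, 747 and 778 bp). The region 179824902 to 179825377 was absent from D209N day 3 only, and 179875165 to 179875607 was absent from D209N day 7 only. Each list difference at Cdh4 between the arms was therefore a region that Flag had and D209N lacked, 1 at day 3 and 2 at day 7.

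Cdh5 encodes VE-cadherin, the junction protein of endothelial cells, on chromosome 8 from 104101613 to 104144504. No list had a peak overlapping Cdh5. All of its 9 regions lay outside the gene, 8 below it and 1 above. It had 3 peaks in each day 3 list and 7 in each day 7 list. Among 7 other endothelial genes, Tek, Kdr and Erg had a gene-end peak in every list, Cldn5 in every list but D209N day 3, and Pecam1, Tie1 and Esam in none.

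The 3 day 3 regions of Cdh5 were the same in both arms and stayed listed at day 7: 104022783 to 104023450 (467, 545, 546 and 638 bp in Flag day 3, D209N day 3, Flag day 7 and D209N day 7), 104028556 to 104029053 (448, 277, 464 and 334 bp) and 104087755 to 104088140 (335, 283, 192 and 267 bp). Both day 7 lists added 104050857 to 104051544 (467 bp in Flag, 688 bp in D209N) and 104076918 to 104077373 (320 and 456 bp). Flag day 7 alone had 104061437 to 104061668 (232 bp) and 104091262 to 104091717 (456 bp). D209N day 7 alone had 104093772 to 104094060 (289 bp) and 104146468 to 104146698 (231 bp), the one above the gene. The arms thus had equal counts on each day and shared 5 of 9 regions at day 7.

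**Figure D3:**
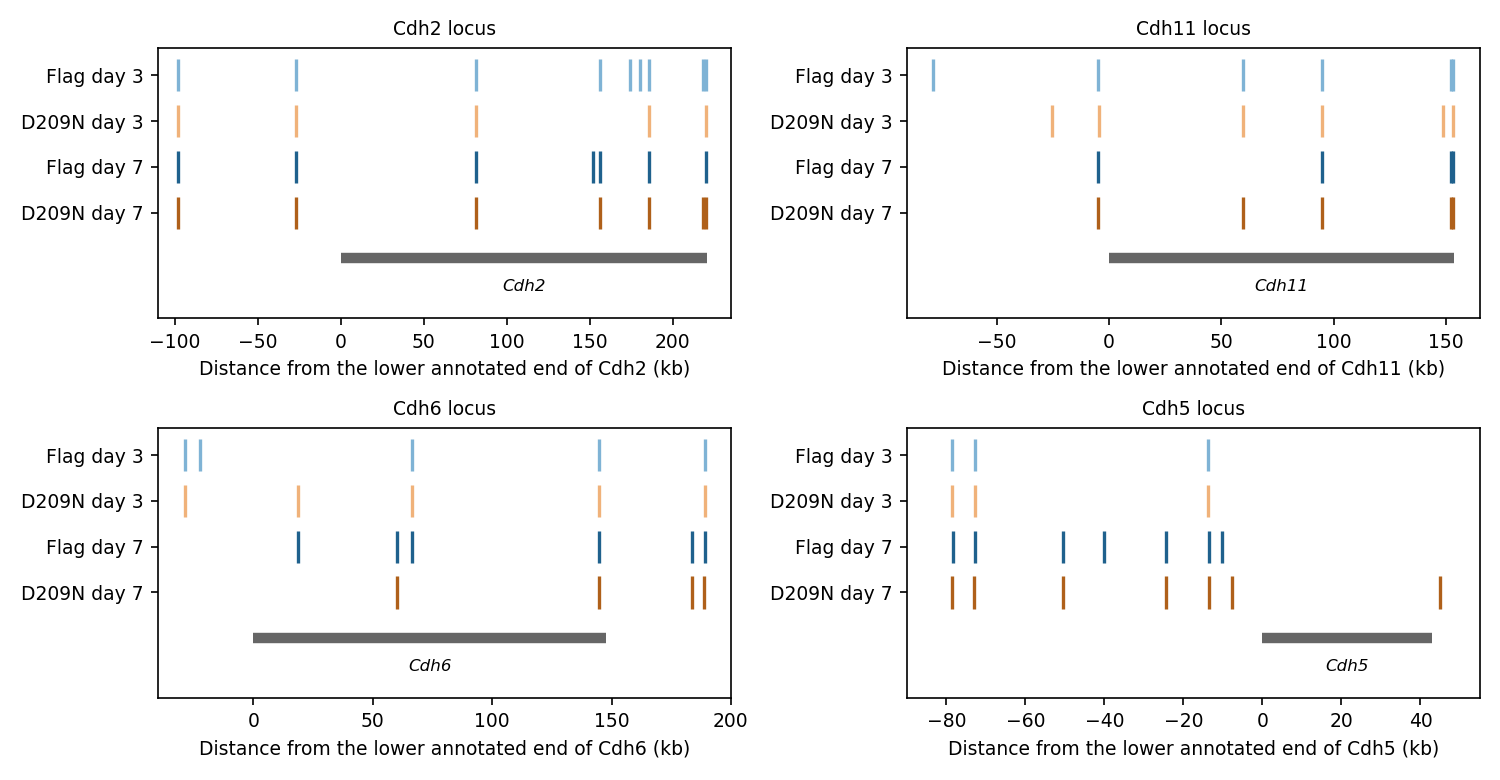
Peaks of Cdh2, Cdh11, Cdh6 and Cdh5 in each list (rows), by distance from the lower annotated end of the gene (kb). Ticks mark peak centres and grey bars the genes; Cdh2 and Cdh11 have a tick at the upper end in every row, and no tick falls on the Cdh5 bar.

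Cdh13 encodes T-cadherin, which lacks the cytoplasmic tail of classical cadherins and is held in the membrane by a lipid anchor. It is the longest member, on chromosome 8 from 118140017 to 119324929, or 1185 kb. It had 23 peaks in Flag and 17 in D209N at day 3, and 21 in Flag and 20 in D209N at day 7. They formed 30 regions, all inside the gene, and 12 of these were in all 4 lists. No region lay in the lowest 143.6 kb of the annotated gene, which takes in every RefSeq model of Cdh13. Whether a region covers the start of a shorter model was not examined.

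The Cdh13 regions were gathered in 1 stretch. From 118283633 to 118566531 there were 20 regions, with 16 peaks in Flag and 15 in D209N at day 3, and 15 in Flag and 13 in D209N at day 7, and 10 of the 20 were in all lists. The rest of the gene held 10 regions, with 7 peaks in Flag and 2 in D209N at day 3, and 6 in Flag and 7 in D209N at day 7. The low Cdh13 count of D209N day 3 thus lay outside the dense stretch, where its 2 peaks were 118830023 to 118830891 (513 bp in that list) and 119304301 to 119304972 (504 bp). The limits of the stretch were chosen after the positions were seen.

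The lowest Cdh13 region, 118283633 to 118284239, was 607 bp wide in Flag and 182 bp in D209N at day 3, and 312 bp in Flag and 473 bp in D209N at day 7. The widest was 118508744 to 118509796, at 955, 931, 938 and 1044 bp in the same order. That region kept nearly the same width in all lists, and the lowest one varied 3.33-fold. Of 8 Cdh13 regions in 1 list, 6 were in Flag day 3: 118349094 to 118349362, 118409559 to 118409764, 118461532 to 118461925, 118732533 to 118732633, 118938176 to 118938399 and 119020923 to 119021126. They were 101 to 394 bp wide. The others were 118566090 to 118566531 in Flag day 7 and 118649051 to 118649203 in D209N day 7. In both day 7 lists and in neither day 3 list were 118937048 to 118937567 and 119064389 to 119064936. In both day 3 lists and in neither day 7 list were 118387795 to 118388295 and 118523810 to 118524303. Of the remaining regions in several lists, 118343210 to 118343608 and 118488814 to 118489254 lacked a peak in Flag day 3 only. Absent from D209N day 3 only were 118348106 to 118348667, 118643497 to 118644042 and 119022309 to 119022737. One region, 118535270 to 118535850, was in D209N day 3 (581 bp) and Flag day 7 (313 bp). With only peaks wider than the list median, the Cdh13 count in Flag turned, with 9 at day 3 and 10 at day 7.

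The other Cdh13 regions in all 4 lists lay in the dense stretch, starting at 118286060, 118290150, 118374586, 118393940, 118444592, 118502578, 118518371 and 118538925. The first of them was 853 and 615 bp wide in Flag and D209N at day 3 and 942 and 718 bp at day 7, wider in Flag on both days. The last 2 were wider at day 7 than at day 3 in both arms. At 118518371 the widths were 456 and 345 bp in Flag and D209N at day 3 and 726 and 741 bp at day 7, and at 118538925 they were 316, 259, 562 and 628 bp in the same order. The highest region of the gene, at 119304301, had the opposite order, with 672 and 504 bp at day 3 and 205 and 257 bp at day 7.

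**Figure D4:**
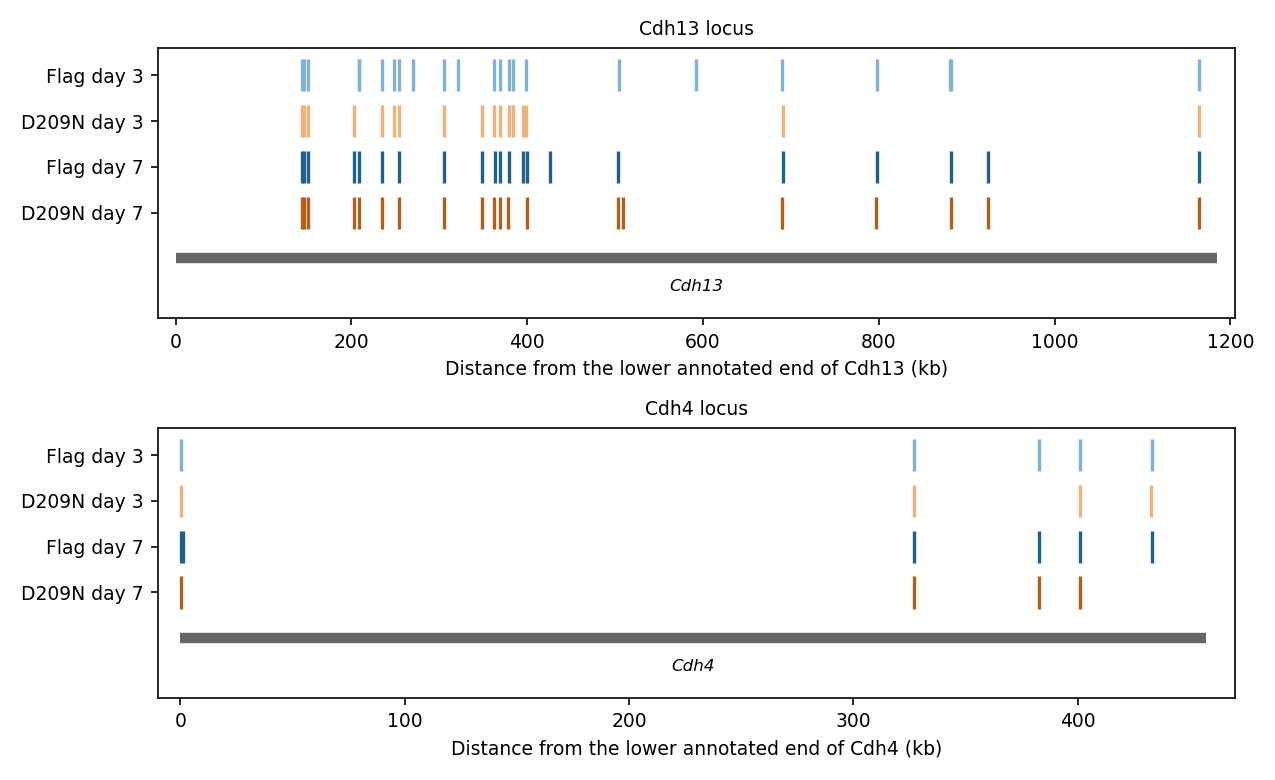
Peaks of Cdh13 and Cdh4 in each list (rows), by distance from the lower annotated end of the gene (kb). Ticks mark peak centres and grey bars the genes; 20 of 30 Cdh13 regions lie between 143.9 and 426.3 kb, and every row has a tick at the lower end of Cdh4.

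The day 3 comparison between arms addresses how D209N cells differed from Flag cells early in reprogramming. Cdh1, Cdh2, Cdh4 and Cdh13 had fewer peaks in D209N day 3, by 3, 4, 1 and 6, and the other 4 members had equal numbers. Among coding genes with a peak in either list 35.1% had fewer in D209N and 8.27% had more, and 0 of the 8 cadherins had more. The summed count was 0.75 times that of Flag (exact binomial interval 0.490 to 1.14), and the whole lists stood at 0.802. Of 62 cadherin regions in either list 20 (32.3%) belonged to Flag alone and 6 (9.68%) to D209N alone, against 25.2% and 7.04% of regions at all coding genes. The interval covers counting error only and treats peaks as independent, although the lists share regions. The cadherin shares and ratio lay near those of all genes, and the shares of genes cover genes with few peaks as well.

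At day 7 the same comparison gave fewer peaks in D209N at Cdh3, Cdh4, Cdh6 and Cdh13, by 3, 2, 2 and 1, and more at Cdh1 and Cdh11, by 4 and 1. Cdh2 and Cdh5 were equal. Over coding genes 24.1% had fewer and 15.1% more. The summed count was 0.948 times that of Flag (0.644 to 1.40), beside 0.953 for the whole lists. Of 67 regions in either list 12 (17.9%) belonged to Flag alone and 9 (13.4%) to D209N alone, against 15.5% and 11.2% over all coding genes. Cdh1 held 4 of the 9 regions in D209N only.

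Between day 3 and day 7 in Flag, the peak count was higher at day 7 for Cdh3 and Cdh5 (by 4 each) and for Cdh4 and Cdh6 (by 1 each). It was lower by 2 for each of Cdh1, Cdh2, Cdh11 and Cdh13. Among coding genes 38.9% had more peaks at day 7 and 15.5% fewer. Of 75 cadherin regions 17 (22.7%) were in day 3 only and 19 (25.3%) in day 7 only, against 14.3% and 29.1%. The summed count was 1.04 times that of day 3 (0.705 to 1.52), beside 1.17 for the whole lists, and turned to 0.933 with only peaks overlapping the gene. Cdh13 and Cdh2 held 11 of the 17 regions in day 3 only.

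In D209N the count was higher at day 7 for Cdh1 (by 5), Cdh5 (by 4), Cdh13 (by 3), Cdh2 (by 2) and Cdh3 (by 1), lower by 1 for Cdh6 and Cdh11, and equal for Cdh4. Among coding genes 46.0% had more and 9.45% fewer. Of 64 cadherin regions 9 (14.1%) were in day 3 only and 22 (34.4%) in day 7 only, against 8.96% and 36.3%. The summed count was 1.31 times that of day 3 (0.861 to 2.01), beside 1.39 for the whole lists. Cdh1, Cdh2 and Cdh13 had fewer peaks at day 7 in Flag and more in D209N, a combination found at 4.43% of coding genes with a peak in any list, and Cdh6 had the opposite one, found at 1.37%. None of the 4 kept it with only peaks wider than the list median. These shares cover genes with few peaks as well, and the difference between arms was not tested.

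By place, 7 of 82 cadherin regions (8.54%) touched the 1 kb around an end of their gene, and 27.4% of 50706 regions at all coding genes touched that around any coding gene's end. Without Cdh13, the longest gene, with 30 regions and none at an annotated end, the share was 7 of 52 (13.5%). The annotated ends are the outermost of all models, so a Cdh13 start inside the gene would not count as an end. The Cdh6 start region, 2.73 kb from the annotated end, counts among the 54 inside a gene away from its ends. In all 4 lists were 30 of the 82 (36.6%, against 40.7%), and 25 were in 1 list (30.5%, against 25.5%). Peaks of regions in all 4 lists had a median width of 502.5 bp, against 637 bp over all coding genes, and peaks of regions in 1 list had 254 bp, against 249 bp. Peaks found in 1 list were the narrower ones, at the cadherins as over all genes. In the 30 shared regions the median width was 503 bp in Flag and 426.5 bp in D209N at day 3, and 530.5 bp in Flag and 567.5 bp in D209N at day 7. D209N day 3 had the narrowest peak in 16 of the 30, and over all coding genes in 56.4% of shared regions.

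**Figure D5:**
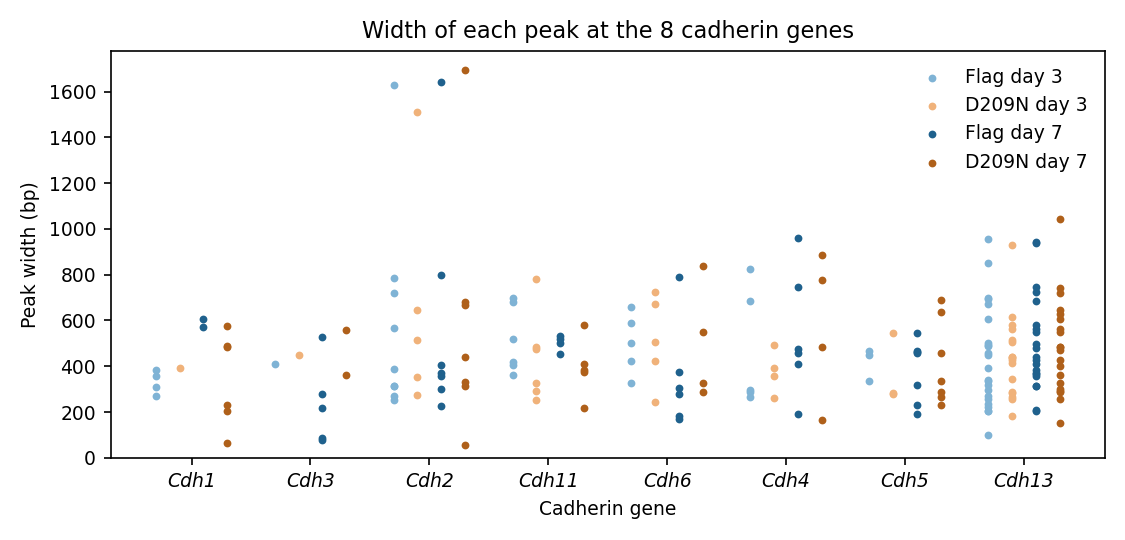
Width of every peak (vertical axis, bp) at each cadherin gene, by list (colours). The 4 widest peaks, from 1512 to 1696 bp, are those at the Cdh2 start, and Cdh1 peaks lie between 66 and 608 bp.

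Catenins and junction partners, which link cadherins to actin or act beside them, numbered 15. In each list 13 of them had a peak at a gene end, beside 51.7 to 61.5% of all coding genes. Ctnnb1, which encodes beta-catenin, had 3, 4, 5 and 6 peaks in Flag day 3, D209N day 3, Flag day 7 and D209N day 7, and Ctnnd2, a neural delta-catenin, had the most over the 4 lists together, 14, 15, 10 and 13. In Flag day 3 Ctnna3 also had 14, and in Flag day 7 Pkp4 had 11. At day 3, 11 of the 15 had fewer peaks in D209N and 2 had more, with a median difference of -1 peak, beside 35.1% and 8.27% of all coding genes with a peak and a median of 0. At day 7, 7 had fewer and 4 more (median 0), beside 24.1% and 15.1%. From day 3 to day 7, 6 had more and 5 fewer in Flag (median 0), beside 38.9% and 15.5%, and 9 had more and 5 fewer in D209N (median 1), beside 46.0% and 9.45%. The median over all coding genes with a peak was 0 in each comparison. Those shares cover genes with few peaks as well, and were not matched to these 15, whose median was 6 or 7 peaks per list. No catenin or junction partner gained or lost its gene-end peak in any of the 4 comparisons.

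Among 17 regulators of Cdh1 or Cdh2 transcription, 11 had a gene-end peak in Flag day 3, 9 in D209N day 3 and 13 in each day 7 list. The share over all coding genes was 55.9, 51.7, 61.5 and 60.4% in Flag day 3, D209N day 3, Flag day 7 and D209N day 7. The repressors Snai1, Snai2, Zeb1, Zeb2 and Twist1 had one in every list. Twist2, a mesenchymal repressor, and Grhl2, an epithelial activator, lacked it in D209N day 3 only. Foxc2, a mesenchymal factor, and Grhl3, an epithelial one, had it at day 7 in both arms and at day 3 in neither. At day 3, 11 of 17 had fewer peaks in D209N and 0 had more (median difference -1), beside the 35.1% and 8.27% of all coding genes. At day 7, 6 had fewer and 2 more (median 0), beside 24.1% and 15.1%. From day 3 to day 7, 11 had more and 2 fewer in Flag (median 1), beside 38.9% and 15.5%, and 11 had more and 0 fewer in D209N (median 2), beside 46.0% and 9.45%. Tcf4, an E-protein, had the most peaks, 17, 14, 18 and 18. The shares over all coding genes were not matched to the regulators for the number of peaks per gene.

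Of 17 other cadherin-superfamily genes, 9 had a gene-end peak in Flag day 3, 6 in D209N day 3 and 10 in each day 7 list. The share over all coding genes was 51.7 to 61.5%. Cdh7, Cdh9 and Cdh22 had it in Flag and not in D209N at day 3, as did 5.03% of all coding genes. Cdh7 and Cdh22 had it in both arms at day 7, and Cdh9, with 2 peaks in Flag day 3 and 0 in the other lists, in neither. At day 7 Cdh15, the muscle cadherin, had it in Flag only and Cdh8 in D209N only. Cdh23, a cadherin of hair-cell tip links, gained it in both arms and went from 3 to 8 peaks in each. Cdh22 had 1 peak in Flag and 0 in D209N at day 3, and 8 in Flag and 6 in D209N at day 7. Cdh18, a neural cadherin, had the most in the list at day 3, 10 in each arm, and 3 in each arm at day 7. At day 3, 10 of the 17 had fewer peaks in D209N and 0 had more (median difference -1), beside 35.1% and 8.27% of all coding genes. At day 7, 4 had fewer and 2 more (median 0), beside 24.1% and 15.1%. From day 3 to day 7 in Flag, 5 had more and 6 fewer (median 0), beside 38.9% and 15.5%. In D209N 8 had more and 3 fewer (median 0), beside 46.0% and 9.45%. Here too the shares over all coding genes were not matched for the number of peaks per gene.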

How the data were processed

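ATAC-seq, which marks accessible chromatin by transposase insertion, was read from 4 peak lists that the authors deposited, 1 per group of 2 samples. Each list gives the chromosome, start, end and name of an interval, and no score, signal or count. Per the submitters' processing notes CASAVA and Bowtie2 2.3.2 were used with the builds mm10 and GRCm38.p5. For the peak caller, its threshold, any insertion offset and the handling of replicates, nothing is given in the labels or headers used here. Names in every list carry rep1, 146 to 180 names per list stand on several intervals, and the narrowest intervals are 1 or 2 bp wide, so a width need not be that of a whole called peak. Lists were matched to groups by the arm and day in the peak names, and 3 mitochondrial intervals per list were left out. Depth is unknown.

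Peaks were assigned as the text describes, in Python 3.11.15 with numpy 2.4.6, to coding genes of the RefSeq table of GRCm38.p6, which shares the files' main chromosomes and gives gene ends without strand. Which end is the start was taken from general knowledge, except for Cdh6. The same rule over all coding genes gave each background share. Ratios of summed counts carry exact binomial (Clopper-Pearson) 95% intervals (scipy 1.17.1) that cover counting error only. Peak counting per gene and the joining of intervals were checked on simulated lists with known answers. Gene-end calls, background shares and skipped numbers were not part of that check. The members and gene lists were chosen with earlier results of these data known. Named beyond the members were genes of 3 fixed lists whose gene-end peak differed within a comparison, the gene with most peaks in each list, and up to 5 genes most like Cdh1; every Cdh13 region is given by position, its width only for some; others are named as examples, chosen after their values were seen. Alternatives changed the assignment window, the nearest-end rule, the width limit, the joining of intervals and the gene-end window.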

Additional observations from a re-analysis of the deposited data

Results flagged for a closer look

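For 4 cadherins the peak count moved in opposite directions between day 3 and day 7 in the arms, with 1 list per group, and these differences were not tested. The change in D209N minus the change in Flag was 7 peaks for Cdh1 (5 more in D209N, 2 fewer in Flag). It was 5 for Cdh13 (3 more and 2 fewer) and 4 for Cdh2 (2 more and 2 fewer). For Cdh6 it was -2 (1 fewer in D209N, 1 more in Flag). The D209N day 3 list was the shortest of the 4, with 29189 peaks, and its part in these differences was not tested. None of the 4 kept opposite directions with only peaks wider than their list's median. There the change from day 3 to day 7 was 2 in Flag and 1 in D209N for Cdh1, 1 and 2 for Cdh13, -2 and 0 for Cdh2, and -2 and -1 for Cdh6. With the nearest coding gene end only, Cdh13 had 1 peak in every list and no change in either arm.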

How the results depend on the processing

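The ratios of summed cadherin counts were recomputed with assignment within 20 kb, with peaks overlapping the gene only, with the nearest coding gene end only, with peaks wider than their list's median, with intervals within 500 bp merged and, chosen after seeing the data, without Cdh13. The ratios ranged from 0.711 to 0.81 for the arms at day 3, 0.833 to 1 at day 7, 0.933 to 1.14 between days in Flag and 1.18 to 1.4 in D209N. The Flag ratio of 1.04 turned to 0.933 with peaks overlapping the gene only, and was 1 within 20 kb. These are subsets of the same peaks. All 4 counting intervals include 1, but they treat peaks as independent although the lists share regions. They therefore do not decide whether the arms or days differ. For single members, 129 of 153 differences kept their direction or stayed 0, 11 became 0, 7 left 0 and 6 turned. Cases in which a setting left neither list with a peak are not among the 153. The Cdh1 difference between arms at day 3, lost with the width limit, is one such case. At Cdh1, Cdh4 and Cdh13 every peak overlaps the gene, so the 20 kb and overlap settings could not change their counts. All 6 that turned did so with the width limit, which differed between lists, from 464 to 489 bp. The 30 regions in all 4 lists stayed 30 when 50% of the shorter interval had to overlap and when intervals within 500 bp were joined. Gene-end peaks were found in 17 of 32 member and list pairs, and in 51.7 to 61.5% of all coding genes per list. The 17 became 19 with 2.5 kb around an end, where Cdh5 gained one in D209N day 7 and Cdh6 in D209N day 3. The Cdh5 peak lies above the gene. At Cdh6 the start region is in all 4 lists, and only its D209N day 3 peak reached the wider window. By peak centre the count was 17. No paired analysis was possible because each group has 1 list and no replicate values, and no replicate could be left out for the same reason. Presence depends on a calling threshold that is not known, so a gene without a listed peak may be accessible below it.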

Other observations

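Skipped serial numbers were counted around each cadherin region that a list lacked. Flag day 3 lacked 26 of the 82 regions, with 0 numbers skipped between the flanking peaks at 15 of them. D209N day 3 lacked 40, with 0 skipped at 15, Flag day 7 lacked 24, with 0 skipped at 7, and D209N day 7 lacked 27, with 0 skipped at 10. At the other absent regions 1 or more numbers were missing, in intervals that often hold more than 1 region. What the missing numbers marked was not tested.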
